A study of Mus musculus with 8 samples.

Results

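Immediate early genes are the genes that cells transcribe first after a mitogen, stress or injury signal, from promoters that need no new protein synthesis. Most of the classical ones are short and code for transcription factors: Fos and Jun proteins pair into AP-1, Egr1 is a zinc finger activator, and Myc drives growth and division. In muscle stem cells they are known to be switched on when quiescent cells are isolated or activated. Because R-loops, in which nascent RNA stays paired with its template strand and leaves the other DNA strand single, form behind RNA polymerase, these genes are natural places to look for them. The genes followed here were Fos, Fosb, Jun, Junb, Jund, Egr1, Atf3, Ier2 and Myc, and their peaks were all entries of the R-loop peak table that carry one of these symbols. Only 3 of the 9 genes, Jun, Myc and Egr1, had such a peak, 1 each, so that 3 of the 28265 union peaks were theirs. Of these 3, 1 (33.3%), that of Egr1, was called higher in the mutant, beside 32.9% of all tested peaks. The Egr1 peak reached the level needed for testing only through its mutant libraries. The Jun and Myc peaks were called in neither direction.

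R-loops were profiled by DRIP-seq, in which DNA fragments that hold RNA:DNA hybrids are pulled down with the S9.6 antibody and sequenced, in mouse muscle stem cells (MuSCs, also called muscle satellite cells). The 3 Ctrl libraries carried the genotype Pax7CreERT/Suv4-20h1WT and the 3 Kmt5b sKO libraries Pax7CreERT/Suv4-20h1KO, where Suv4-20h1 is the older name of Kmt5b, whose enzyme methylates lysine 20 of histone H4. Both genotypes thus carried Pax7CreERT, a tamoxifen-inducible Cre driven by the satellite cell gene Pax7, which deletes the floxed Kmt5b alleles of the mutant (fl/fl; Ctrl +/+) in cells that express Pax7 when tamoxifen is given. Cells of young adult mice of both sexes on a C57BL/6 background were purified and grown in culture before the DNA was taken, and 1 input library per genotype, which has no column in the table, served only for peak calling.

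Scores are spike-in scaled read signal per union peak, and the summed score was 3893768 to 4729631 in the Ctrl libraries and 4699599 to 4930261 in the sKO libraries. The median autosomal peak scored 56.0 to 65.0 in Ctrl and 81.0 to 84.0 in sKO, so most peaks differed in the same direction. A peak was called when limma gave an adjusted p under 0.1 and the fold change was over 1.5. By this rule 32.9% of the 25815 tested peaks were called higher in sKO and 0.883% lower, the median peak having a log2 fold change of 0.35, and member counts are given beside these shares. Of the 8484 peaks called higher, 2640 had a mean Ctrl score not over 30, the lower limit for the mean over all libraries, and were tested only through their sKO scores. The shares depend on the scaling: with every library scaled to the same autosomal median, 2512 peaks were higher and 3410 lower, and after quantile normalization 2071 were higher and 1988 lower. Both settings set aside the spike-in scale and remove any difference shared by most peaks. More balanced calls follow from this by construction, so they cannot show whether the shared difference was real. Whether the peak in Kmt5b, the targeted gene, covers the deleted exon was not examined. Its score was 412, 658 and 420 in Ctrl and 440, 449 and 484 in sKO, with no call (log2 fold change -0.08 ± 0.14 SE, limma adjusted p = 0.68). Of 12 muscle stem cell markers 5 had a peak, Pax7 and Myod1 among them, whereas 7, Myf5 and Calcr among them, had none, and 0 of 16 fibro-adipogenic, immune and Schwann cell markers had one. The 14 peaks of the 5 stem cell markers summed to 4137 to 4933 in Ctrl and 4648 to 4804 in sKO, with 2 called higher and 0 lower. Of 8 differentiated muscle markers 5, Ttn among them, had 26 peaks in all. These summed to 8537 to 13813 in Ctrl and 6720 to 6889 in sKO, with 0 called higher and 10 lower. Peaks of 3 of 6 endothelial markers, 7 in all, summed to 240 to 256 in Ctrl and 399 to 494 in sKO, with 4 called higher and 0 lower. The part of these differences in the member values was not tested, and a smaller share of cells with an R-loop cannot be told apart from a weaker R-loop per cell.

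The 3 peaks lie at different places in their genes, all downstream of the start site, and that of Egr1 is placed with its values further on. Coordinates are those of mm10 (GRCm38), and gene models those of GENCODE. Jun (ENSMUSG00000052684) is a single-exon gene on the minus strand at chr4:95049034-95052222, and its peak at chr4:95048800-95051799 began 423 bp after the start site and ran 234 bp past the gene end. It spanned 86.7% of the gene and the whole coding sequence of 1002 bp. The Myc gene (ENSMUSG00000022346, chr15:61985391-61990374, plus strand) carried a peak of 1200 bp at chr15:61986200-61987399, mainly in the intron that follows the leading exon, between 809 and 2008 bp after the start site. This peak covered 24.1% of the gene, with 270 bp of it in an exon of a short annotated transcript.

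The sequences below were picked as extremes from under the Jun and Myc peaks and do not stand for the whole peaks. Each is the window of 300 bases with the most G over C on the coding strand, within the coding sequence for Jun (chr4:95050304-95050603, minus strand) and within the intron for Myc (chr15:61986726-61987025, plus strand), 5′ to 3′ from RefSeq GRCm38.p6. Capitals mark runs of 3 or more G, the pattern in which a displaced G-rich strand is known to favour stable R-loops.
Jun: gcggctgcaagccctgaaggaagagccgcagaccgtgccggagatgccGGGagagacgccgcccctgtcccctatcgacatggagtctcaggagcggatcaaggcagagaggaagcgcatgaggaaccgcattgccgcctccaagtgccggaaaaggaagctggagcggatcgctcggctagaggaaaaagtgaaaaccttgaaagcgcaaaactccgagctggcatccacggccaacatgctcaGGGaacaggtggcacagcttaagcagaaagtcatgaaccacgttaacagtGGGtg
Myc: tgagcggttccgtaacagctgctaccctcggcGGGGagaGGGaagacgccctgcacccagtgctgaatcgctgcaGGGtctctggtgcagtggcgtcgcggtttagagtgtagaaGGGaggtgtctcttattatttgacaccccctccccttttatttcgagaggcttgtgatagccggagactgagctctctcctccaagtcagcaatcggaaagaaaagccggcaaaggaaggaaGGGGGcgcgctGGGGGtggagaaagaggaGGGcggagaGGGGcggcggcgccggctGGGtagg
The Myc window held 9 such runs at a GC content of 60.7%, and the Jun window 3 runs at 58.7%. Runs of 3 or more C, which are not marked, numbered 5 in the Myc window and 3 in the Jun window. GC skew, the excess of G over C on the coding strand divided by their sum, was 0.24 in the Myc window and 0.10 in the Jun window, which were picked for it. Over whole peaks the skew was 0.084 for Myc and 0.021 for Jun, but -0.28 for Egr1, whose coding strand is C-rich there. The middle 50% of tested peaks of short coding genes, those up to 8 kb, ran from -0.00090 to 0.092. The 3 peaks shared a high GC content that the choice of genes did not use, of 54.4% for Jun, 57.7% for Myc and 56.7% for Egr1, against medians of 42.4% over all tested peaks, 50.3% over tested peaks of short coding genes and 50.2% over those of other immediate early genes. Peaks with GC of 54% or more, a limit set after the member values were seen, were called higher in 29.0% of cases and lower in 0.332%.

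None of the 9 start sites lay inside a union peak. At Jun, the peak edge nearest the promoter was 424 bp from the last base before the start site. The promoter printed here is the stretch of 250 bases before the start site (chr4:95052223-95052472, minus strand, RefSeq GRCm38.p6). It is shown because Jun had the densest R-loop signal of the 3 members with a peak, and its peak did not reach this region. No score is given outside peaks, so the level in the promoter is not known.
Jun promoter: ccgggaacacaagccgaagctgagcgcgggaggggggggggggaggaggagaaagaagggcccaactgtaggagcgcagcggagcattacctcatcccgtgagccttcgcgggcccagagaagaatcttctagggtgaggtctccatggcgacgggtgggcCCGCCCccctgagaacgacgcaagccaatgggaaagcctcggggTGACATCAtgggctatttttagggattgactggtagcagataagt
Capitals mark TGACATCA at positions -45 to -38 and GGGCGG on the opposite strand at -89 to -84, counted from the start site, which are the letters of an AP-1/ATF-like element and of a GC box. Among 32851 promoters of the RefSeq table, searched on both strands in their full length, 2.93% held TGACATCA and 32.7% held GGGCGG. Such matches describe letters only. No TGANTCA, the usual AP-1 motif, occurred in any of the 3 member peaks on either strand.

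**Figure D1:**
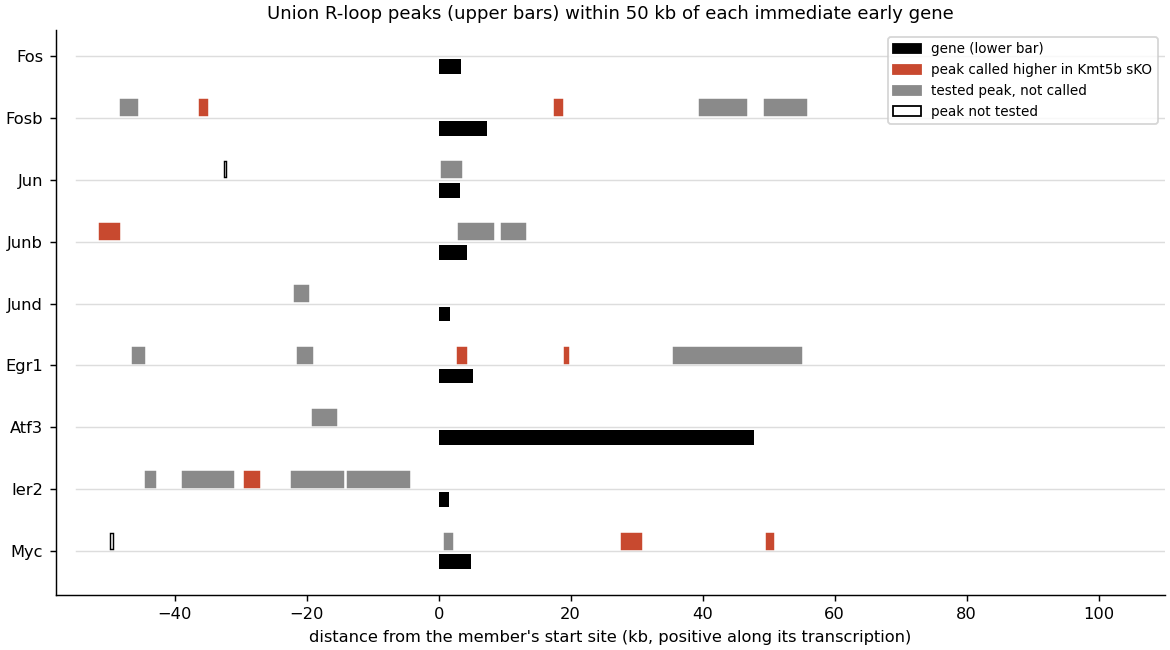
Each row is one immediate early gene, drawn from its start site along its transcription (horizontal axis, kb), with the gene as the lower black bar and union peaks within 50 kb as upper bars, red where called higher in sKO, grey where tested but not called and white where not tested. Only Jun, Junb, Egr1 and Myc are overlapped by a peak, no start site is covered, and Fos has no peak within 50 kb.

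Jun, the AP-1 subunit that can also pair with itself, had the strongest R-loop signal of the 3 members with a peak. Its peak of 3000 bp scored 227, 283 and 232 in the Ctrl libraries and 271, 318 and 266 in the sKO libraries. The groups overlapped, since the second Ctrl library lay above the first and the third sKO library. Per kb of peak this gave means of 82.4 in Ctrl and 95 in sKO, and over all 6 libraries Jun stood at the 99.3 percentile of tested peaks and the 97.6 percentile of tested peaks in short coding genes. Mean scores were 247 ± 31.0 in Ctrl and 285 ± 28.7 in sKO (SD, n = 3 each), and the difference did not pass the test (log2 fold change 0.21 ± 0.16 SE, limma adjusted p = 0.30). The 95% interval of the fold change ran from 0.933 to 1.43, so a change over 1.5-fold in either direction lay outside it. Among tested peaks of the same length, 3000 bp, 18.9% were called higher and 2.1% lower, and their median on the log2 scale was 0.25. A noncoding antisense gene, Junos, overlaps the start of Jun, and the scores carry no strand, so hybrids from either transcript cannot be told apart where they overlap.

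Myc, the helix-loop-helix factor that binds DNA with Max, carried a weaker signal. Its peak scored 36, 44 and 27 in Ctrl and 30, 34 and 55 in sKO. The ranges overlapped widely, with only the third sKO library above every Ctrl library. Mean scores were 35.7 ± 8.51 and 39.7 ± 13.4 (SD, n = 3 each), or 29.7 and 33.1 per kb, which placed Myc at the 36.6 percentile of tested peaks for score per kb. The log2 fold change was 0.13 ± 0.34 SE (limma adjusted p = 0.80), and the 95% interval of the fold change, 0.684 to 1.75, included changes above the calling limit. Of the 1631 tested peaks that also measured 1200 bp, 63.6% were called higher and 0.123% lower, and their log2 fold changes had a median of 0.80. Some peaks of this length, such as the one in Ercc1, were tested only through their sKO libraries, and how many was not counted. Without the third Ctrl library the Myc value became -0.05, and without the third sKO library -0.13, so the sign of this difference rested on single libraries.

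Egr1, which binds GC-rich promoter elements and is among the fastest genes to respond to serum, was the only member called higher. Egr1 (ENSMUSG00000038418, chr18:34859823-34864984, plus strand) carried its peak of 1400 bp at chr18:34862600-34863999, from 2777 to 4176 bp after the start site. That peak covered 27.1% of the gene and 72.9% of its coding sequence, lay entirely in exon sequence and stopped 985 bp before the gene end. It scored 31, 34 and 25 in Ctrl and 102, 35 and 71 in sKO. All 3 sKO libraries lay above all 3 Ctrl libraries, but the second sKO library exceeded the highest Ctrl library by only 1 score unit, whereas the first was the highest of all. A separation in this direction occurred in 41.5% of tested peaks and the opposite in 3.81%. Mean scores were 30 ± 4.58 and 69.3 ± 33.5 (SD, n = 3 each), or 21.4 and 49.5 per kb. The log2 fold change was 1.07 ± 0.30 SE, a 2.09-fold difference with a 95% interval of 1.39 to 3.16 (limma adjusted p = 0.0025). The peak passed the limit of a mean score over 30 through its sKO libraries, its Ctrl mean being 30, which is not over the limit. The share of peaks of the same length, 1400 bp, called higher was 56.7%, and 0.374% were called lower. These include the Egr1 peak itself, and how many others were tested only through their sKO libraries was not counted.

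The Egr1 call depended on how the libraries were put on a common scale and on how the variance was estimated. With every library scaled to the same autosomal median, the log2 fold change was 0.59 (limma adjusted p = 0.12), and after quantile normalization it was 0.50 (limma adjusted p = 0.23). Both scalings take out the part of the change that most peaks shared. With the variance of this peak alone, which its spread among sKO libraries makes large, the adjusted p from limma's linear model was 0.19. Without the first sKO library the log2 fold change fell to 0.73 and the limma adjusted p was 0.098, and without the second it rose to 1.49. The log2 fold change was positive in all 19 alternatives that tested Egr1, and 16 of them called it. Several of these cannot alter the fold change, among them the variance models, the fold limits, the replicate block and the added sex chromosomes. Their sign was fixed in advance, so the 19 are not independent checks. Whether the change at Egr1 differed from that at Jun or Myc was not tested.

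**Figure D2:**
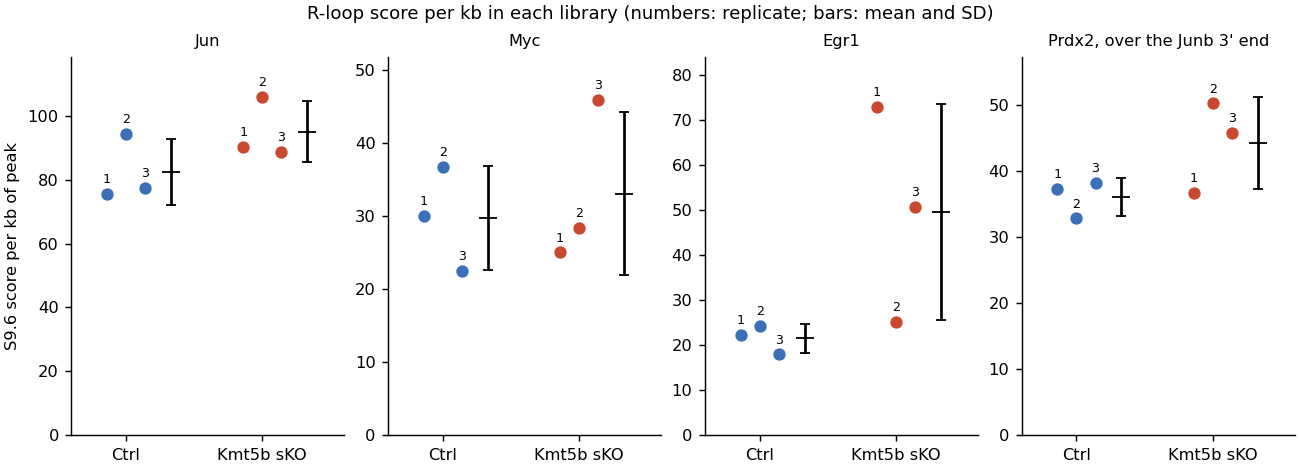
Score per kb of peak (vertical axes, each starting at 0) in the 3 Ctrl (blue) and 3 Kmt5b sKO (red) libraries, numbered by replicate, with the mean and SD beside them, for the Jun, Myc and Egr1 peaks and for the Prdx2 peak that reaches into Junb. Groups overlap for Jun, Myc and Prdx2, and for Egr1 the second sKO library sits just above the Ctrl libraries.

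**Figure D3:**
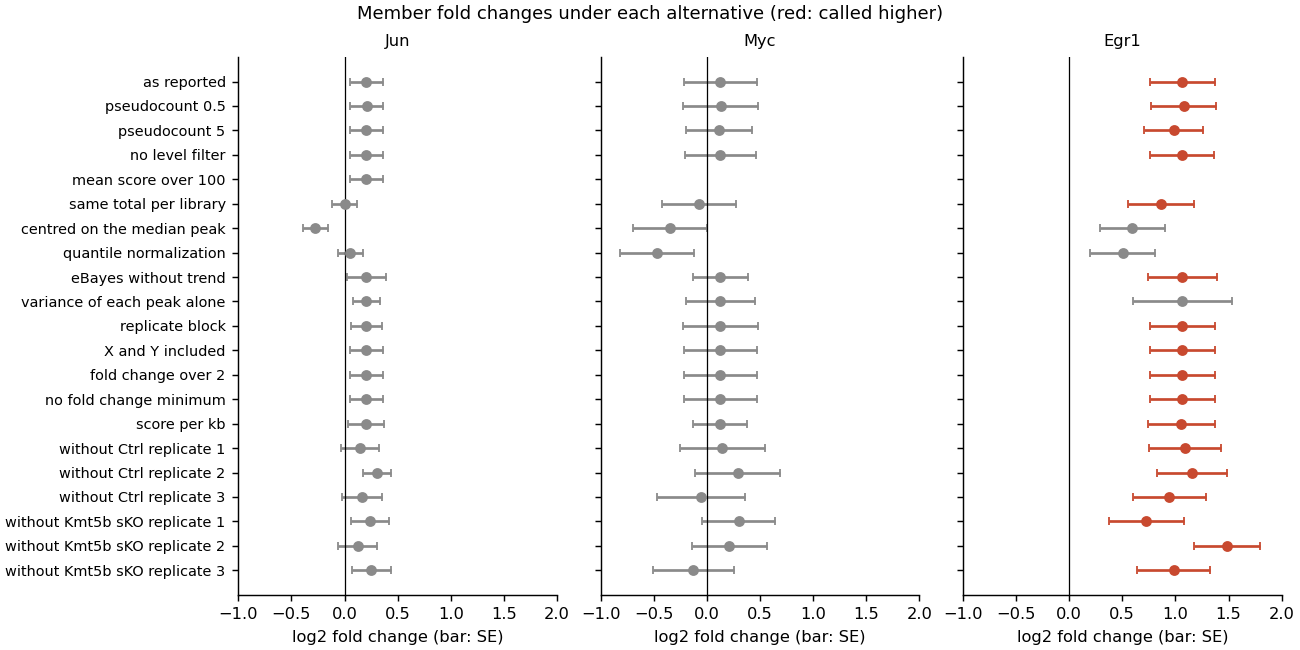
Log2 fold change of sKO over Ctrl (horizontal axes) with its SE for each member peak under the reported analysis and each alternative, red where called higher. Jun and Myc were called under none and crossed 0 under some scalings, and Egr1 stayed above 0; the row for a mean score over 100 shows Jun alone because the other peaks fell under that limit.

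The other AP-1 genes of the set had no peak of their own. Fos, the partner that gives AP-1 its strong DNA binding, was the most remote, with the nearest union peak 112 kb away in Tmed10. Fosb, a Fos relative, lay 10.1 kb from a peak in Rtn2, and Jund, the Jun family gene that many resting cells express, lay 19.8 kb from one in Lsm4. Atf3, a stress-induced member of the ATF group and with 47.7 kb the longest of the 9 genes, lay 15.6 kb from an intergenic peak. Ier2, a short nuclear response gene, came within 4.55 kb of a peak in Nacc1. A gene without a union peak has no score in the table, so no level or difference can be given for it. A low signal there and one below the peak caller's threshold cannot be told apart.

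Junb, a Jun family member that often restrains Jun, was overlapped by a peak that the table assigns to its neighbour Prdx2, a peroxiredoxin gene, since a peak takes the name of the gene it overlaps most. This peak (chr8:84970400-84975799) reached 1316 bp into the 3′ end of Junb, which is 31.1% of the gene. It scored 201, 177 and 206 in Ctrl and 198, 271 and 247 in sKO. The first sKO library lay within the Ctrl range while the other two lay above it, and the peak was not called (log2 fold change 0.28 ± 0.16 SE, limma adjusted p = 0.16). How much of the signal came from Junb transcripts cannot be told apart from that of Prdx2.

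Longer genes more often had a peak. Of the 9 members, 8 are no longer than 8 kb. Among autosomal coding genes of that size, 748 of 6093 had a peak of their own, which is 12.3%, against 46.7% of longer coding genes. The members' 3 of 9 are given beside these shares without a test. Since a peak takes the name of only 1 gene, larger shares were overlapped by any peak, 19.7% of short and 50.6% of longer coding genes. Among the members, Junb was overlapped in this way without a peak of its own. A start site inside a peak was uncommon in general, at 4.94% of the short coding genes. The Jun peak covered more of its gene than the median of 55.4% for tested peaks of short coding genes, whereas the Myc and Egr1 peaks covered less. Across all tested peaks of short coding genes, the share called higher was 27.9% and the share called lower 0.258%, around a median of 0.37 on the log2 scale.

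**Figure D4:**
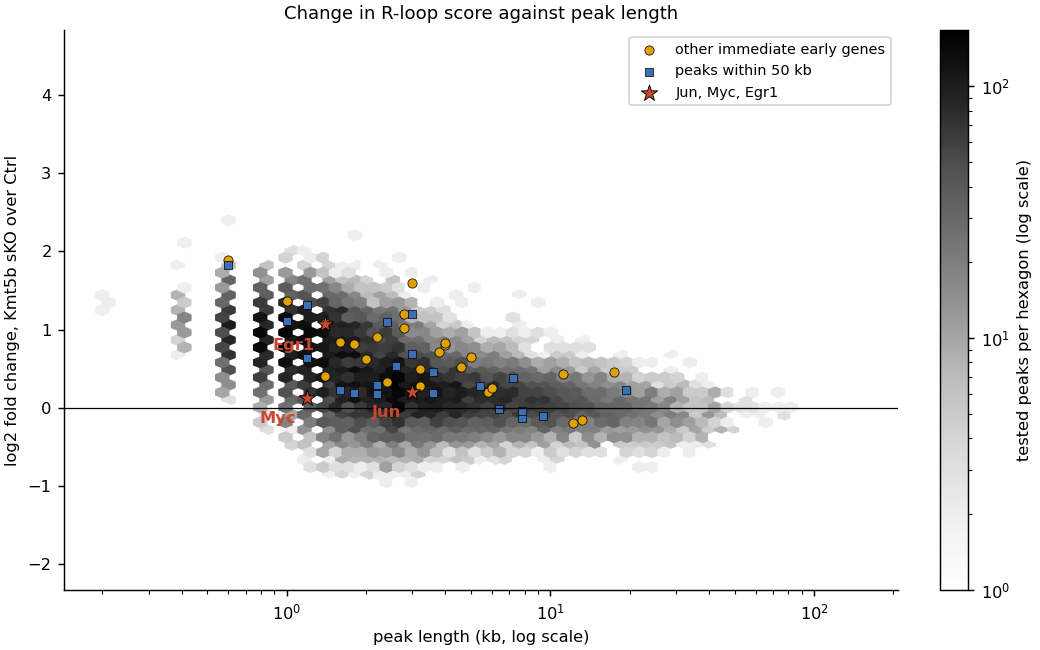
Log2 fold change of sKO over Ctrl (vertical axis) against peak length in kb (horizontal axis, log scale) for all 25815 tested peaks (grey, darker where more peaks fall), the 3 member peaks (stars), tested peaks within 50 kb of a member (squares) and peaks of other immediate early genes (circles). Shorter peaks have higher fold changes in general, and the Myc star lies low for its length. Some short peaks were tested only through their sKO libraries.

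Peaks around the members gave a mixed picture. Within 50 kb of the 9 genes lay 23 other peaks, of which 21 were tested and 7 (33.3%) were called higher and 0 lower, beside the share of 32.9% over all tested peaks. The mean Ctrl score of 2 of these 7 was not over 30, so that they passed the level limit only through their sKO libraries, and these are the peak downstream of Egr1 and the peak in Ercc1 described next. Downstream of Egr1, an intergenic peak of 600 bp (chr18:34878800-34879399) scored 17, 9 and 18 in Ctrl and 53, 46 and 59 in sKO, with no overlap (log2 fold change 1.83 ± 0.44 SE, limma adjusted p = 0.00038). Repeat-masked sequence made up 72.3% of that peak, and 77.5% of all tested peaks outside annotated genes were called higher. On the downstream side of Myc, an intergenic peak at chr15:62035000-62035999 scored 41, 21 and 36 in Ctrl and 59, 73 and 76 in sKO, again without overlap (log2 fold change 1.11, limma adjusted p = 0.00092), and 81.0% of it was masked as repeat. 
Among coding neighbours, the peak in Ercc1, a DNA repair nuclease gene near Fosb, scored 27, 27 and 33 in Ctrl and 76, 61 and 85 in sKO (log2 fold change 1.32, limma adjusted p = 8.9e-05). The peak in Trir, near Junb, scored 46, 69 and 71 in Ctrl and 121, 164 and 141 in sKO (log2 fold change 1.20, limma adjusted p = 3.6e-07). In both, every sKO library exceeded every Ctrl library. Long peaks closest to Ier2, those in Nacc1 of 9400 and 7800 bp, had log2 fold changes just below 0 and were not called.

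Other genes of the immediate early response were described from a list of 48, of which 25 had a peak and 25 peaks in all were tested. The list was chosen with earlier results of these data known, so its share is a description and not an independent finding. Of the 25 tested peaks, 14 (56.0%) were called higher and 0 lower, beside 32.9% and 0.883% over all tested peaks. With libraries scaled to the same median 5 were higher and 2 lower, and after quantile normalization 5 were higher. Their log2 fold changes had a median of 0.64, against 0.35 for all tested peaks. For tested peaks of coding genes up to 8 kb, 27.9% were called higher and 0.258% lower, at a median of 0.37. Phlda1, a pleckstrin homology domain gene induced by growth factors, scored 95, 65 and 86 in Ctrl and 268, 234 and 238 in sKO (log2 fold change 1.59, limma adjusted p = 7.1e-16). Fosl1, which codes for the AP-1 subunit Fra-1, scored 70, 57 and 59 in Ctrl and 118, 180 and 136 in sKO (log2 fold change 1.19, limma adjusted p = 3.6e-07). Neither gene showed any overlap between the groups. Zfp36, whose product speeds the decay of AU-rich mRNAs, rose from a mean of 27.0 ± 6.08 to 72.3 ± 21.1 (SD, n = 3 each; log2 fold change 1.36), and Ier5l from 13.7 ± 3.79 to 54.3 ± 17.8 (log2 fold change 1.89). These 2 of the 14 passed the level limit only through their sKO libraries. Both peaks of Fosl2, which codes for the AP-1 subunit Fra-2, were not called, at log2 fold changes of -0.15 and 0.20, so Fos and Jun family genes with a peak of their own, Jun, Fosl1 and Fosl2, were called only at Fosl1.

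Genes that act upstream of the members, such as the MAP kinases and the ternary complex factors that activate Fos and Egr1 with Srf, had 105 tested peaks. Of these 16 (15.2%) were called higher and 0 lower, beside 32.9% and 0.883% over all tested peaks, and the median peak of the list stood at 0.20 on the log2 scale. All tested peaks include those outside genes. For tested peaks of coding genes over 8 kb, the share called higher was 22.75% and the median 0.25. Scalings that remove a shift shared by most peaks turned the direction. At the same median for every library 1 was higher and 13 lower, the list median being -0.27. After quantile normalization 2 were higher and 6 lower, at a median of -0.089. Of the 16, 3 passed the level limit only through their sKO libraries, that of Map2k1 among them. The Elk3 peak with the largest difference, in a ternary complex factor gene, scored 51, 73 and 82 in Ctrl and 155, 148 and 149 in sKO (log2 fold change 1.15, limma adjusted p = 5.3e-07). Map2k1 and Map2k2, the kinases just above Erk, each had a called peak, at log2 fold changes of 1.02 and 0.91, as did Atf1, a Creb relative, at 0.93. The other 3 tested peaks of Map2k1 were not called, at -0.03, 0.28 and 0.31. The other tested peak of Map2k2, which measured 15600 bp, was not called either, at 0.32. Nor were the other tested peaks of Atf1, at 0.48 and -0.13. Srf, which is in both this list and the preceding one, rose from a mean of 67.7 to 122 (log2 fold change 0.82). Among dimerisation partners and antagonists of Myc, 13 peaks were tested and 1 (7.69%) was called higher, that of the antagonist Mxi1, with 45, 34 and 33 in Ctrl and 76, 88 and 41 in sKO, which overlap. This share stands beside 32.9% over all tested peaks and 22.75% over those of coding genes over 8 kb. The count became 0 higher and 2 lower at the same median for every library, and 0 higher after quantile normalization or with the variance of each peak alone. The other 12, in Max and Mycl among others, were not called, and 0 were called lower in the reported analysis.

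**Figure D5:**
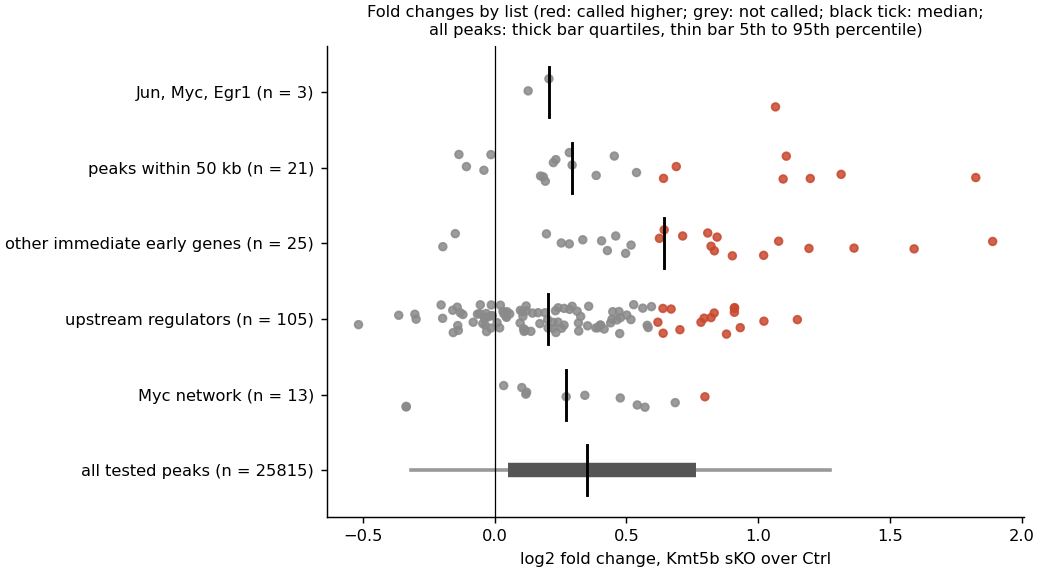
Log2 fold change of sKO over Ctrl (horizontal axis) for each tested peak of the members, of their surroundings and of the 3 related gene lists, red where called higher and grey where not called, with the median as a black tick. All 25815 tested peaks are summarised at the bottom by quartiles (thick bar) and the 5th to 95th percentiles (thin bar). The other immediate early genes, a list chosen with earlier results known, have the highest median, 0.64.

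The peaks whose pattern over the 6 libraries was most like the mean of the 3 member peaks were those of Atad1, Rad17 and the predicted gene Gm49355, with Pearson r of 0.993, 0.991 and 0.99. The measure was log2(score + 1), and the likeness rests on few libraries that also differ in their median score: 800 tested peaks had an r over 0.9.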

How the data were processed

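DRIP-seq scores of 3 Ctrl and 3 Kmt5b sKO libraries were read from the union peak table. The authors trimmed reads with Trimmomatic 0.39, aligned them to mm10 (GRCm38) and to the fly spike-in genome BDGP6 with STAR 2.7.3a, kept unique alignments, removed duplicates with Picard 2.21.7 and called peaks against input, and per the methods Epic2 was the caller (SICER in the submitters' processing notes). They removed blacklisted regions, merged the peak lists, scaled coverage per peak by spike-in reads and named each peak after the gene with the longest overlap. The deposited values are therefore whole-number scores, not raw counts, and sequencing depth cannot be read from them. The deposited table also gives peak coordinates and gene symbols, and holds no fold changes or p-values. A union peak exists only where a library passed the caller.

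Scores were tested as log2(score + 1) with limma 3.58.1 in R 4.3.3 (lmFit, eBayes with trend, two-sided, Benjamini-Hochberg adjustment) over 25815 autosomal peaks with a mean score over 30, and the level, fold change and adjusted p limits follow the study's methods. The prior degrees of freedom were estimated as infinite, so variances came from the trend. In simulated data of this size, 2-fold changes, up and down in equal numbers, were planted in 200 peaks with no shift shared by most peaks. Of these 155 (77.5%) were called, with 16 unchanged peaks, and 0 peaks where none was changed. The real data differ, with 33.7% of peaks called and most of them higher, so these rates are not those of the real calls. The study describes 3 biological replicates. Sequence features came from RefSeq GRCm38.p6 and gene spans from GENCODE. RefSeq promoters matched 6 of 9 members (Atf3, Fos, Fosb, Jun, Junb and Jund). Members, lists and tests were chosen with earlier results of these data known, and no list was tested. Named beside the members were, for the surroundings and each list, the called peaks with the 4 largest fold changes, and the 3 peaks most like the members; Srf, Fosl2, Max, Mycl and Nacc1 were added after their values were seen. Alternatives covered pseudocount, level filter, scaling, variance model, fold limit, sex chromosomes, score per kb, replicate block and each library left out.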

Additional observations from a re-analysis of the deposited data

How the results depend on the processing

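Scaling to the same total gave log2 fold changes of -0.00016 at Jun, also the median of the 3 members, and -0.074 at Myc, and 5563 higher and 818 lower calls over all tested peaks. Centring on the median peak gave -0.28 at Jun, again the members' median, -0.34 at Myc and -0.20 at Prdx2, medians of -0.13 over all tested peaks, -0.18 in the surroundings, -0.27 upstream and -0.21 in the Myc network, and 2512 higher and 3410 lower calls. The median of other immediate early genes became 0.16. Centring and quantile normalization remove a shift shared by most peaks, so more balanced calls follow from them by construction. Quantile normalization gave -0.47 at Myc, medians of -0.012 over all peaks, -0.089 upstream and -0.087 in the Myc network, and 2071 higher and 1988 lower calls. Called member peaks numbered 0 under centring, quantile normalization, the variance of each peak alone and a mean score over 100, a limit that only Jun passed. Under 0 of 21 settings was a member called lower.

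Higher calls over all peaks numbered 1163 at a mean score over 100, 3658 at a fold over 2 and 5454 when each peak kept its own variance, and lower calls 80, 15 and 75, with 813 lower without a fold minimum. In the surroundings 2 were higher at a mean over 100 and 4 under quantile normalization, and 2 lower under centring. Of other immediate early genes 5 were higher under centring and under quantile normalization, 6 at a fold over 2 and 8 at a mean over 100, and 2 lower under centring. Upstream, higher calls were 1 centred, 2 by quantile and at a fold over 2, 3 at a mean over 100, 7 with the variance alone, 8 at the same total and 29 without a fold minimum, and lower calls 13 centred, 6 by quantile, 2 without a fold minimum and 1 at the same total. In the Myc network, higher calls were 0 centred, by quantile, with the variance alone, at a fold over 2 and at a mean over 100, 2 without the level filter and 3 without a fold minimum, and lower calls 2 centred and 1 without a fold minimum.

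Leaving out 1 library at a time, peaks called over all tested peaks ranged from 7130 to 9014 higher and 82 to 326 lower (82 without the second Ctrl library). Upstream, higher calls ranged from 9 to 18 (9 without the third Ctrl library) and lower calls from 0 to 3 (3 without the second sKO library, 1 without the third Ctrl library). In the Myc network higher calls ranged from 1 to 3. The member fold changes ranged, on the log2 scale, from 0.13 to 0.31 for Jun, from -0.13 to 0.30 for Myc and from 0.73 to 1.49 for Egr1.

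Same-numbered libraries showed no visible shared deviation from their group means, with correlations of -0.0094, 0.0108 and -0.0272. Whether equal numbers mark a shared litter or day is not given. With replicate number as a block, log2 fold changes stayed at 1.07 for Egr1 (limma adjusted p = 0.0027), 0.21 for Jun and 0.13 for Myc, as they must in a balanced design. No member call changed. With 3 libraries a group, an exact permutation test of a single peak cannot go below p = 0.1, and at low-scoring peaks such as that of Myc only large differences can be seen.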
